A study of Mus musculus with 12 samples.

Results

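The choroid plexus genes described here are 9 genes, *Ttr*, *Folr1*, *Prlr*, *Kl*, *Clic6*, *Aqp1*, *Cldn2*, *Enpp2* and *Otx2*, found by their symbols among the 24062 genes measured in each tissue. They were read in brain and spleen RNA of male C57BL/6 mice aged 10 weeks, 3 *Norad*+/+ and 3 *Norad*-/- libraries per tissue, sequenced as single reads of poly(A) RNA with a stranded kit. *Norad*-/- mice lack the long noncoding RNA *Norad* in all cells through a germline deletion, which was maintained in several independent founder lines. The labels do not say which line a library comes from, or whether brain and spleen were taken from the same mice. Values are FPKM, reads scaled to transcript length and library depth, so levels of different genes can be set side by side.

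The choroid plexus is the folded epithelium inside the brain ventricles that makes cerebrospinal fluid and separates it from blood. Its cells load the fluid with carrier proteins, vitamins and ions, and they are the main site of transthyretin and klotho in the brain. Klotho, encoded by *Kl*, is a membrane protein and coreceptor for the hormone FGF23 that can also be shed into the fluid, and mice without it show signs resembling early aging. The tissue is a small fraction of a whole brain. In such bulk samples, fewer choroid plexus cells and less RNA per cell cannot be told apart.

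The libraries differed in ways that touch these genes. *Norad* itself, listed under an older symbol, lay between 206 and 635 FPKM in *Norad*+/+ brain and between 42.9 and 62.0 FPKM in *Norad*+/+ spleen, and at or below 0.0173 FPKM in every *Norad*-/- library. Estimated from FPKM steps at lowly covered genes, depth was 28.4 to 36.8 M reads in brain and 31.7 to 35.3 M in spleen. Over all genes *Norad*+/+ brain replicate 3 was the least like its tissue: its Spearman correlations to the others had a median of 0.949, where the remaining brain libraries had 0.973 to 0.979. The same held for *Norad*+/+ spleen replicate 3 (0.948, and 0.961 to 0.971 for the remaining spleens). *Norad*-/- brain replicate 3 carried pituitary transcripts, whose 8 markers summed to 1339 FPKM there and to 0.808 to 1.48 FPKM in the other brain libraries. Pineal and retinal markers, a second possible source of *Otx2*, summed to 0.984 to 1.41 FPKM in the 6 brain libraries.

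In brain, all 9 genes were detected in every library and none of the 8 that could be tested passed the threshold between genotypes. The 8 are those with a mean of at least 1 FPKM, which *Prlr* did not reach. With limma and an adjusted p under 0.05, 0 of 8 were called, against 0.0153% of the 13051 genes tested, and 1 of 8 had an unadjusted p under 0.05, against 6.62% of all genes. The difference was below 0 for 5 of the 8, against 44.9% of all genes tested. Their median difference was -0.05 on the log2 scale, and that of all genes tested was 0.02. *Norad*-/- values all lay below *Norad*+/+ values for 2 of the 8, *Ttr* and *Clic6*, against 6.56% of all genes, and all above for 0 of 8, against 10.6%.

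**Figure D1:**
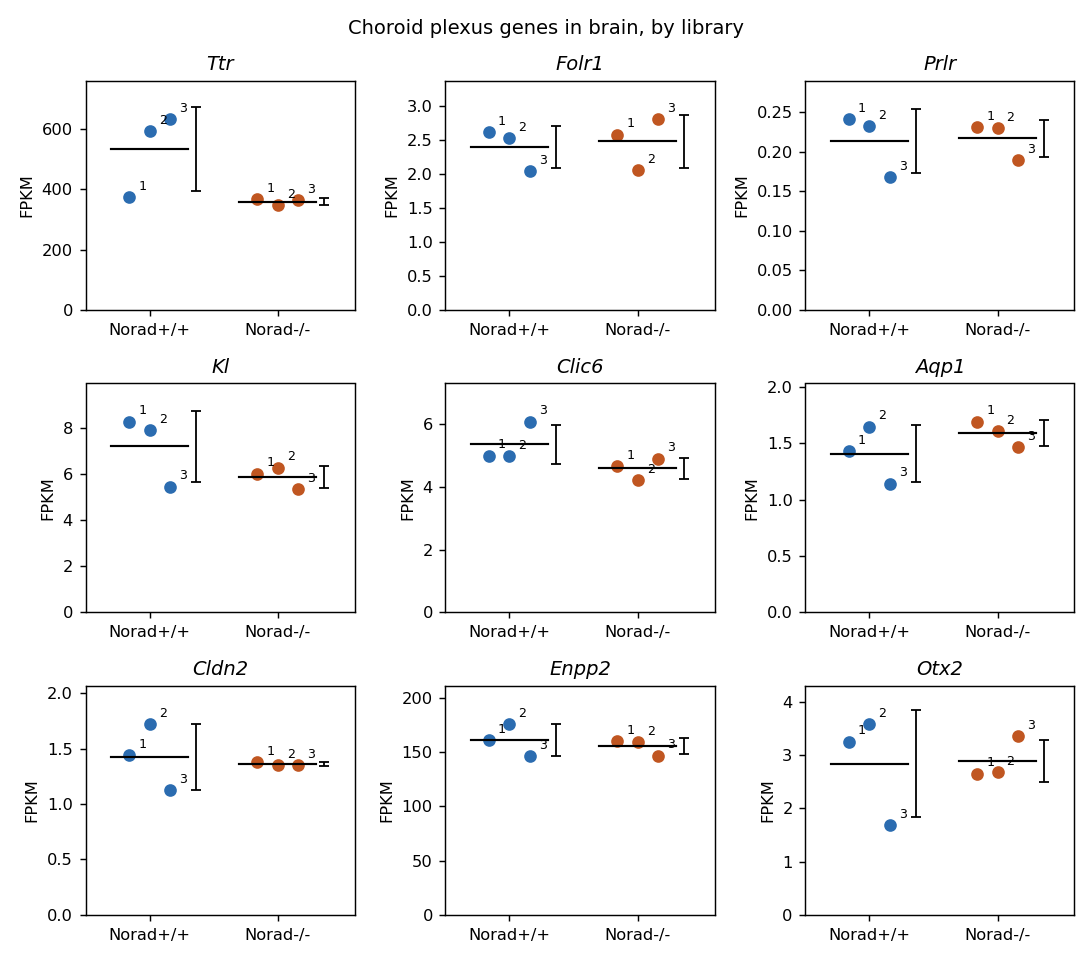
FPKM of the 9 choroid plexus genes in the 6 brain libraries; points are single libraries numbered by replicate, lines are group means and bars show the SD (n = 3). *Ttr* in *Norad*-/- sits between 346 and 366 FPKM, just under the lowest *Norad*+/+ library at 373 FPKM, while for *Kl*, *Otx2*, *Aqp1* and *Cldn2* *Norad*+/+ replicate 3 is the lowest of its group.

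By level, the 9 genes fell into tiers in brain. *Ttr* had a mean of 446 FPKM over the 6 libraries, rank 41 among all genes in the table, and *Enpp2* had 158 FPKM, rank 213. *Kl* (6.55 FPKM) and *Clic6* (4.98 FPKM) came next, and their ranges overlapped. *Otx2* (2.87 FPKM) and *Folr1* (2.44 FPKM) overlapped with each other, as did *Aqp1* (1.5 FPKM) and *Cldn2* (1.39 FPKM). *Prlr* was lowest at 0.215 FPKM. The ranges of neighbouring tiers did not overlap, except that *Otx2* in *Norad*+/+ replicate 3 (1.69 FPKM) lay below the highest values of *Cldn2* (1.72 FPKM) and, by less than the digits shown, *Aqp1* (1.69 FPKM).

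*Ttr* encodes transthyretin, which carries thyroid hormone and, through retinol-binding protein, retinol. The gene lies at chr18:20665280-20674321 on the plus strand (GRCm38, GENCODE M21) and has 4 exons and 1 annotated transcript. In *Norad*+/+ brain it was at 373, 593 and 632 FPKM in replicates 1 to 3. In *Norad*-/- brain it was at 366, 346 and 365 FPKM. The *Norad*-/- libraries were close to one another (359 ± 11.1 FPKM, SD, n = 3) and the *Norad*+/+ libraries were not (533 ± 140 FPKM), and *Norad*+/+ replicate 1 lay next to the *Norad*-/- group. The log2 difference, *Norad*-/- minus *Norad*+/+, was -0.53 with a 95% confidence interval of -1.05 to -0.02, and it missed the threshold (limma, adjusted p = 0.718). Without *Norad*+/+ replicate 1 it was -0.77 and without replicate 3 it was -0.39.

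*Folr1* encodes the folate receptor through which choroid plexus cells pass folate to the cerebrospinal fluid, and it lies at chr7:101858331-101870788 on the minus strand. It was at 2.62, 2.53 and 2.05 FPKM in *Norad*+/+ brain. The *Norad*-/- values were 2.58, 2.06 and 2.81 FPKM. Both groups covered the same range, and the difference of 0.04 (95% interval -0.34 to 0.43, limma adjusted p = 0.941) was below 0 when either library numbered 3 was left out (-0.063 without that of *Norad*+/+ and -0.048 without that of *Norad*-/-).

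*Prlr* encodes the prolactin receptor, which in the choroid plexus takes part in moving prolactin from blood to cerebrospinal fluid. It lies at chr15:10177238-10349180 on the plus strand. It was at 0.241, 0.232 and 0.168 FPKM in *Norad*+/+ brain and at 0.231, 0.230 and 0.190 FPKM in *Norad*-/- brain. The groups overlapped, and the difference in a fit without the filter on low values was 0.02 (95% interval -0.34 to 0.38, limma adjusted p = 0.977). *Prl*, the hormone it binds, was at 0, 0 and 280 FPKM in *Norad*-/- brain and averaged 0.0446 FPKM in the *Norad*+/+ libraries. The library at 280 FPKM, *Norad*-/- replicate 3, is the one that carried pituitary transcripts.

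*Prlr* was also the one gene of the 9 whose longest annotated 3' UTR, of 7742 bases, holds a PUMILIO response element, the motif TGTANATA that PUMILIO proteins bind and that *Norad* RNA carries in many copies. It holds 2 of them. Of the 11923 genes tested in brain with an annotated 3' UTR, 28.4% hold at least 1, and of 35 other choroid plexus genes 1 did, *Sostdc1*, a secreted inhibitor of bone morphogenetic protein and Wnt signals. The 3' UTRs of the other 8 genes, among them *Kl* with 1963 bases and *Ttr* with 583 bases, had 0 matches. Both *Prlr* sites are shown because no other gene of the group has this motif, with the match in capitals, in the strand of the transcript and the build GRCm38.
Prlr site at chr15:10330185-10330214, plus strand: tgttgccttacTGTACATAcgattctactt
Prlr site at chr15:10331414-10331443, plus strand: gcaacaatgtaTGTAAATAgaaaacaagat
At 0.168 to 0.241 FPKM *Prlr* lay too low to be tested with the others.

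*Kl* lies at chr5:150952607-150993817 on the plus strand, with 5 exons. In *Norad*+/+ brain klotho RNA was at 8.27, 7.90 and 5.45 FPKM. In *Norad*-/- brain it was at 6.02, 6.28 and 5.35 FPKM. Replicates 1 and 2 of *Norad*+/+ were above every *Norad*-/- library, and replicate 3 lay among them, so the groups overlapped. The means were 7.21 ± 1.53 and 5.89 ± 0.477 FPKM (SD, n = 3), a difference of -0.27 on the log2 scale (95% interval -0.69 to 0.16, limma adjusted p = 0.726). The size of this difference moved with the library left out. It was -0.16 without *Norad*+/+ replicate 1 and -0.19 without *Norad*+/+ replicate 2. Without *Norad*+/+ replicate 3 the difference was -0.45 (95% interval -0.69 to -0.22, limma adjusted p = 0.295), and with both libraries numbered 3 left out, a fit chosen after seeing the data, it was -0.39 (adjusted p = 0.244). With the mean level of 27 other choroid plexus genes as a covariate it was -0.08 (adjusted p = 0.683).

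Across the 6 brain libraries the level of *Kl* kept a nearly constant proportion to a few other genes. The likeness was measured as the SD over the 6 libraries of the log2 ratio of the 2 genes, whose median over all genes tested was 0.34. The 5 genes closest to *Kl* were *Pde3a* (SD 0.07), *Zfp628* (0.07), *Trpv4* (0.07), *Mast1* (0.07) and *Wnk2* (0.08). *Trpv4* is a cation channel of choroid plexus cells, one of the 35 other choroid plexus genes. It was at 1.5, 1.5 and 0.910 FPKM in *Norad*+/+ brain and at 1.12, 1.06 and 1.01 FPKM in *Norad*-/- brain, so its replicate 3 of *Norad*+/+ was low like that of *Kl*. *Kcnj13*, a potassium channel of the same cells, named after its value was seen, ranked 9 (SD 0.08). Over the 27 other choroid plexus genes tested the median SD to *Kl* was 0.23. These points share libraries and depth, and over 6 libraries such a likeness is a description only.

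*Ttr* was unlike the rest by the same measure. None of the 10 genes closest to it was on the choroid plexus list, and they were *Mrpl35* (SD 0.08), *Mxra7*, *Anp32e*, *Zfp64*, *Acsl6*, *Pde4b*, *Wdr82*, *Mdm2*, *Osbp* and *Palm* (0.14). Of the other members, *Clic6* came nearest to *Ttr* at rank 571 (SD 0.28), and *Kl* had rank 7474 (SD 0.46). Of the 27 other choroid plexus genes, *Cdr2* (rank 277, SD 0.26) and *Cab39l* (rank 285, SD 0.26) came nearest, named after their values were seen. The median SD to *Ttr* was 0.46 over the 27 other choroid plexus genes and 0.44 over all genes tested.

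In proportion to *Ttr*, all 8 other genes had a higher mean log2 ratio in *Norad*-/- brain, by 0.26 for *Kl* to 0.71 for *Aqp1*. These 8 ratios share 1 denominator, so they are not 8 separate observations of a direction. The *Norad*+/+ and *Norad*-/- ratios of *Aqp1* did not overlap (exact permutation p = 0.1, the smallest that 3 against 3 allows, 0.343 adjusted over the 8), and for *Kl* the exact permutation p was 0.6. Without *Norad*+/+ replicate 3 the *Kl* ratio differed by -0.065 and that of *Aqp1* by 0.43.

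Water, ion and junction proteins form the next group. *Clic6*, at chr16:92485736-92541243 on the plus strand, encodes a member of the chloride intracellular channel family. It was at 5.0, 4.99 and 6.08 FPKM in *Norad*+/+ brain and at 4.65, 4.23 and 4.90 FPKM in *Norad*-/- brain. Like *Ttr* it was highest in *Norad*+/+ replicate 3, and its groups did not overlap, though the gap between 4.90 and 4.99 FPKM was smaller than the spread within either group. The difference was -0.21 (95% interval -0.50 to 0.07, limma adjusted p = 0.718).

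*Aqp1* encodes a water channel of the epithelium's fluid side and of red cells, and it lies at chr6:55336432-55348555 on the plus strand. In brain it was at 1.43, 1.65 and 1.14 FPKM in *Norad*+/+ and at 1.69, 1.61 and 1.47 FPKM in *Norad*-/-. The groups overlapped and differed by 0.18 (95% interval -0.21 to 0.56, limma adjusted p = 0.777), and by 0.04 without *Norad*+/+ replicate 3. *Cldn2*, at chrX:139800828-139811386 on the plus strand, encodes a claudin that forms pores for cations and water in the tight junction. Its values were 1.44, 1.72 and 1.12 FPKM in *Norad*+/+ brain and 1.38, 1.35 and 1.35 FPKM in *Norad*-/- brain. The *Norad*-/- values of *Cldn2* lay inside the *Norad*+/+ range, and the difference was -0.05 (95% interval -0.45 to 0.36, limma adjusted p = 0.938).

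*Enpp2* encodes autotaxin, the secreted enzyme that makes lysophosphatidic acid, and lies at chr15:54838901-54952892 on the minus strand. Besides choroid plexus, oligodendrocytes and the vessels of lymphoid organs are known to express it. In brain it varied least of the 9 genes, 1.2-fold between the highest and lowest library. It was at 161, 176 and 146 FPKM in *Norad*+/+ and at 160, 159 and 147 FPKM in *Norad*-/-, a difference of -0.05 (95% interval -0.32 to 0.22, limma adjusted p = 0.906).

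*Otx2* encodes a homeodomain transcription factor needed to form the choroid plexus and kept on in its adult cells, and it lies at chr14:48657677-48673819 on the minus strand. It varied most of the 9, 2.12-fold between libraries. It was at 3.25, 3.58 and 1.69 FPKM in *Norad*+/+ brain. The *Norad*-/- values were 2.65, 2.68 and 3.35 FPKM. *Norad*+/+ replicate 3 was below all other libraries and the other *Norad*+/+ libraries were above replicates 1 and 2 of *Norad*-/-. The difference was 0.09 (95% interval -0.60 to 0.78, limma adjusted p = 0.933). It was -0.24 without *Norad*+/+ replicate 3 and -0.34 with both libraries numbered 3 left out.

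The core bound by OTX homeodomain proteins, TAATCC or GGATTA on the other strand, was sought in RefSeq promoter windows (GRCm38.p6) of 250 bases before to 50 after each transcription start. Windows were given for 5 of the 9 genes, *Kl*, *Aqp1*, *Otx2*, *Prlr* and *Cldn2*, 10 windows in all. The core was in 1 of these 10 windows, 1 of the 4 of *Otx2* itself, at position -211 from the start at base 48665109 of chromosome 14. Of all 32851 promoter windows 7.06% hold it. Counted by gene, over any window of the gene, 8.14% of 27025 genes hold it, and 4 of 29 other choroid plexus genes with a window do. The stretch printed here lies whole within an exon of 2 of the 11 *Otx2* transcripts in GENCODE M21. It is shown with the core in capitals, 5' to 3' on the strand of the gene, because it is the one match among the 5 genes.
Otx2 stretch at chr14:48665303-48665332, minus strand: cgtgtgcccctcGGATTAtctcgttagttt
A match is a description of letters and does not show binding.

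**Figure D2:**
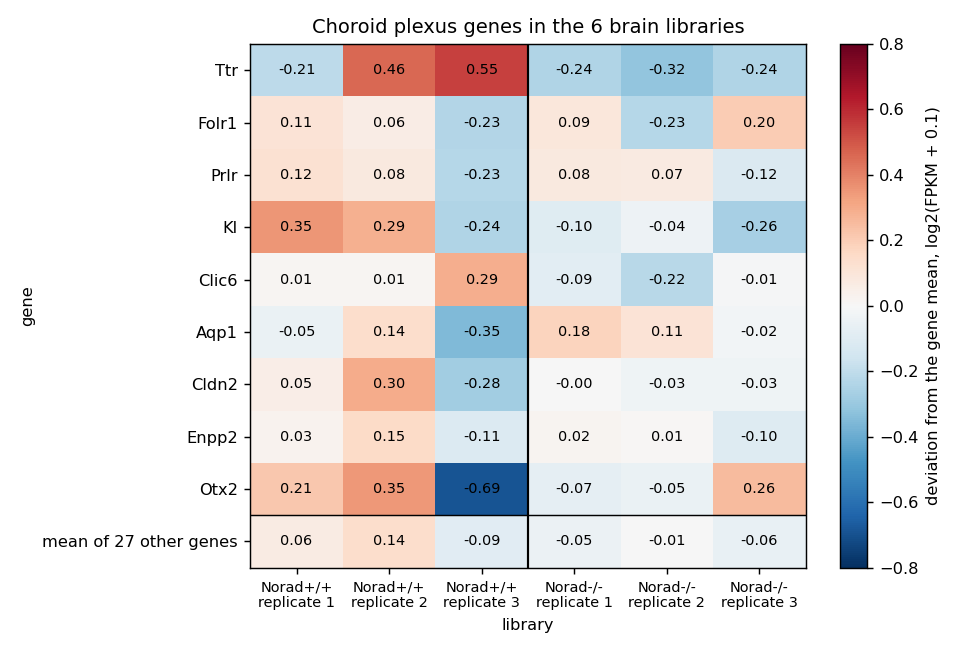
Deviation of each choroid plexus gene in each brain library from that gene's mean over the 6 libraries, on the log2(FPKM + 0.1) scale, with the mean over 27 other choroid plexus genes in the bottom row. *Norad*+/+ replicate 3 is low for *Kl* (-0.24), *Otx2* (-0.69) and *Aqp1* (-0.35) and high for *Ttr* (0.55) and *Clic6* (0.29).

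The plot of deviations by library shows how much *Norad*+/+ replicate 3 set these values. For 6 of the 9 genes it was the lowest of the 6 brain libraries, and for 2, *Ttr* and *Clic6*, the highest. Among all genes tested it was the lowest library for 35.8% and the highest for 31.1%. Of the 27 other choroid plexus genes it was lowest for 13 and highest for 7. The mean deviation of these 27 genes ran from -0.09 in that library to 0.14 in *Norad*+/+ replicate 2.

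**Figure D3:**
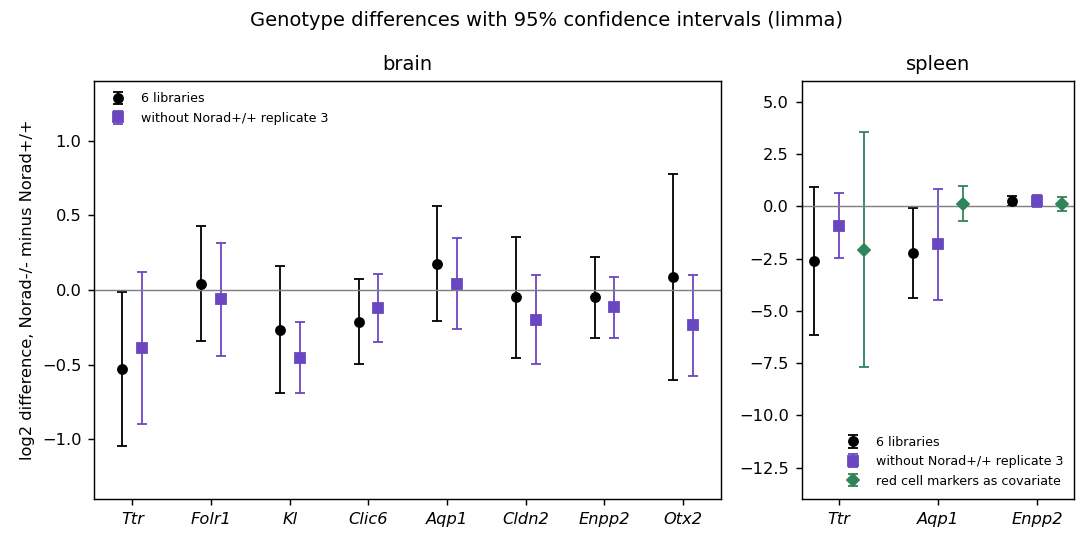
Log2 differences between genotypes (*Norad*-/- minus *Norad*+/+) with 95% confidence intervals from limma, for the 8 genes tested in brain and the 3 tested in spleen, with all 6 libraries, without *Norad*+/+ replicate 3 and, in spleen, with red cell markers as a covariate. In brain the *Kl* value goes from -0.27 to -0.45 and the *Otx2* value from 0.09 to -0.24 when that library is left out, and in spleen the *Aqp1* value goes from -2.22 to 0.13 with the covariate.

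The genes that act with these 9 gave no call in brain either. Of 35 other choroid plexus genes 27 had enough signal for a test, 0 passed with limma, 0 had an unadjusted p under 0.05, and 16 lay below 0 with a median of -0.05. The most abundant were *Igf2*, a growth factor (59.6 ± 21.7 against 51.7 ± 13.6 FPKM in *Norad*+/+ and *Norad*-/-, SD, n = 3), *Vat1l*, *Igfbp2* and *Cab39l*. Of the carriers, enzymes and receptors of thyroid hormone and retinol 8 were tested and 0 passed. The most abundant of them was *Thra*, a thyroid hormone receptor, with a difference of -0.06. Of the partners of klotho in endocrine FGF signalling and its shedding 7 were tested and 0 passed, among them the sheddases *Adam10* (-0.10) and *Bace1* (0.10) and the receptor *Fgfr1* (-0.08). Of 8 folate genes 0 passed, and 1 had an unadjusted p under 0.05, against 6.62% of all genes.

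Prolactin signalling gave 0 of 5 past the threshold and 2 with an unadjusted p under 0.05, against 6.62% of all genes. These were *Cish* (0.82), whose groups overlapped, and *Socs2*. Another of the 5, *Prl*, passed the filter through *Norad*-/- replicate 3 alone (280 FPKM), so its place in this count is tied to the filter. *Socs2*, an inhibitor induced by this pathway and by growth hormone, was at 3.10, 2.83 and 3.09 FPKM in *Norad*+/+ and at 3.85, 4.01 and 4.49 FPKM in *Norad*-/- (limma adjusted p = 0.605). Replicates 1 and 2 of *Norad*-/-, where the pituitary markers summed to 1.44 and 1.48 FPKM, were above every *Norad*+/+ library too. The part of pituitary transcripts in the *Socs2* values was not tested. For lysophosphatidic acid signalling 0 of 7 passed, and the most abundant gene was the phosphatase *Ppap2b* with a difference of 0.12. Ion transport genes of fluid secretion gave 0 of 12, among them the sodium pump subunit *Atp1b1* (0.30). For other aquaporins the count was 0 of 2, with *Aqp4* at 0.06, and for other claudins and junction proteins 0 of 8, with *Cldn11* at -0.18 and *Cldn5* at -0.42. The other chloride intracellular channel genes gave 0 of 4, with *Clic4* at 0.05, and factors of the roof plate and related to OTX2 gave 0 of 6, with *Zic1* at -0.11.

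Cells next to the choroid plexus could enter a dissected brain in varying amounts. The 10 ependymal markers summed to 21 to 29.3 FPKM in *Norad*+/+ and 22.4 to 27 FPKM in *Norad*-/- brain. The 11 meningeal fibroblast markers summed to 387 to 573 FPKM in *Norad*+/+ and 586 to 934 FPKM in *Norad*-/-, and these sums did not overlap. Of the 10 meningeal markers tested, 0 passed with limma, 5 had an unadjusted p under 0.05, against 6.62% of all genes. In 5 all *Norad*-/- libraries were higher, against 10.6%, and in 1, *Foxc1*, all were lower (-0.74), against 6.56%. *Ptgds*, the most abundant of them, is also made in choroid plexus and made up most of the sums. It was at 340 to 527 FPKM in *Norad*+/+ and at 539 to 873 FPKM in *Norad*-/-. The next most abundant, *Dcn* and *Bgn*, overlapped between the groups, so the gap between the sums is largely that of *Ptgds*. Oligodendrocyte markers summed to 2056 to 2762 FPKM in *Norad*+/+ and 2341 to 2699 FPKM in *Norad*-/-. The lowest sum was in *Norad*+/+ replicate 3, where *Enpp2* was also lowest (146 FPKM). In *Norad*-/- replicate 3 *Enpp2* was nearly as low (147 FPKM) beside the highest *Norad*-/- sum. The part of these cells in the values of the 9 genes was not tested.

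In spleen most of the choroid plexus genes were close to 0, and *Aqp1* stood at a higher level than in brain. The tables of the tissues were made separately, so the levels are set side by side with no test. *Kl*, *Clic6*, *Otx2*, *Cldn2*, *Folr1* and *Prlr* were at or below 0.356 FPKM in every spleen library, and each was higher in every brain library than in any spleen library. *Clic6* and *Otx2* were listed at 0 in 5 of 6 spleen libraries, *Cldn2* in 4 and *Kl* in 2. *Enpp2* was at 25.5 to 35.4 FPKM in spleen and 146 to 176 FPKM in brain. *Aqp1* was the one gene of the 9 that was higher in every spleen library, 7.69 to 136 FPKM against 1.14 to 1.69 FPKM in brain.

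**Figure D4:**
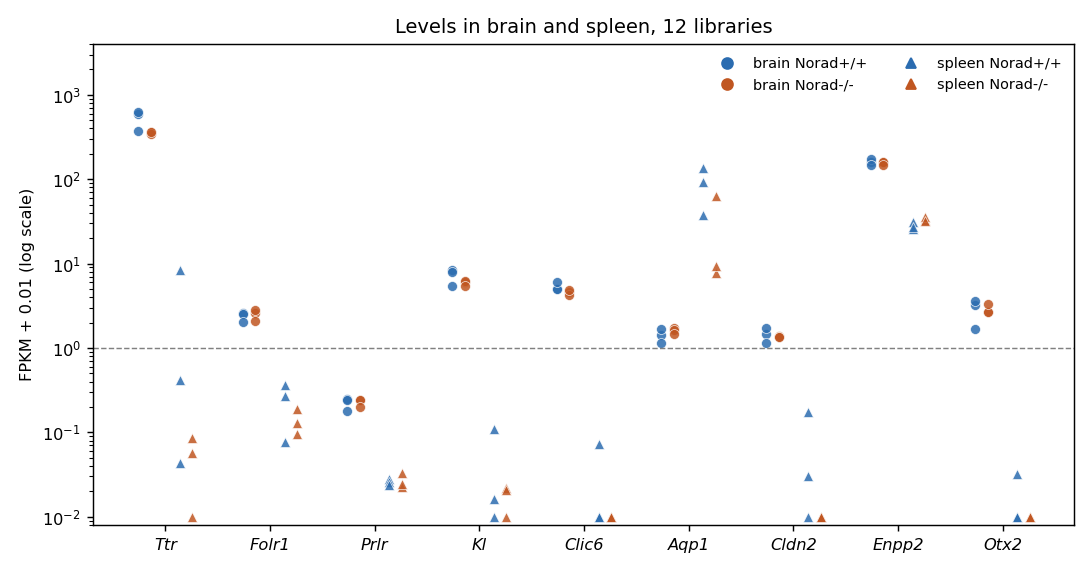
FPKM + 0.01, on a log scale, of the 9 choroid plexus genes in the 6 brain libraries (circles) and the 6 spleen libraries (triangles), with a dashed line at 1 FPKM, the level used as the filter for tests. In spleen, 6 of the genes stay under that line in every library, *Ttr* crosses it in 1 library at 8.42 FPKM, and *Aqp1* and *Enpp2* lie above it in all.

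Between genotypes in spleen 3 of the 9 genes had a mean of at least 1 FPKM and could be tested, and 0 of 3 passed with limma, against 0.0323% of the 12397 genes tested. An unadjusted p under 0.05 was found for 2 of the 3, against 21% of all genes tested. The values lay below 0 for 2 of 3, against 53.8% of all genes. Of these, *Ttr* passed the filter through *Norad*+/+ replicate 3 alone (8.42 FPKM), so its sign is tied to the filter and adds nothing to this count. The groups did not overlap and *Norad*-/- was higher for 1 of 3, *Enpp2*, against 11.6% of all genes, and lower for 0 of 3, against 14.9%. Of the 35 other choroid plexus genes 18 were tested in spleen, 0 passed and 3 had an unadjusted p under 0.05. Of the klotho partners 8 were tested, 0 passed and 2 had an unadjusted p under 0.05. Both shares are near that of all genes.

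*Aqp1* in spleen was at 38.0, 92.7 and 136 FPKM in *Norad*+/+ and at 7.69, 9.43 and 63.9 FPKM in *Norad*-/-. It ranged 17.7-fold over the libraries, and *Norad*-/- replicate 3 lay above *Norad*+/+ replicate 1, so the groups overlapped. The difference was -2.22 (95% interval -4.38 to -0.06, limma adjusted p = 0.231), -1.82 without *Norad*+/+ replicate 3 and -3.19 without *Norad*-/- replicate 3.

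The red cell lineage, whose mature cells carry aquaporin 1 in their membrane, varied along with it. The 9 red cell markers summed to 9432, 25350 and 22240 FPKM in *Norad*+/+ and to 3492, 3260 and 15180 FPKM in *Norad*-/- spleen. All 9 were tested and had a value below 0, against 53.8% of all genes, with a median of -2.26. Of them 7 had an unadjusted p under 0.05, against 21% of all genes, and 0 passed. *Aqp1* divided by *Alas2*, the first enzyme of heme synthesis in red cell precursors, stayed between 0.184 and 0.318 in the 6 libraries. With the red cell markers as a covariate the *Aqp1* difference was 0.13 (95% interval -0.72 to 0.99, limma adjusted p = 0.980). These markers were lower in value in *Norad*-/- spleen too, so this fit cannot tell red cell content from genotype. The cause of the *Aqp1* difference was not tested.

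**Figure D5:**
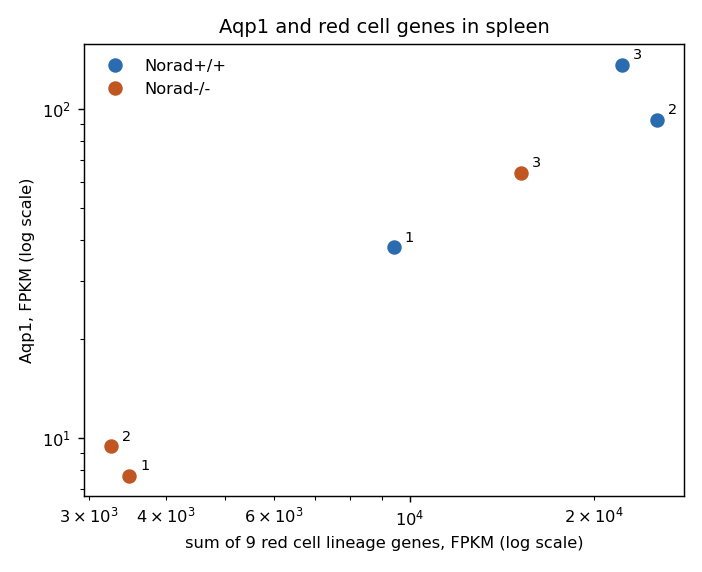
*Aqp1* (FPKM, log scale) against the summed FPKM of 9 red cell lineage genes (log scale) in the 6 spleen libraries, numbered by replicate. The libraries with the lowest sums, *Norad*-/- replicates 1 and 2 at 3492 and 3260 FPKM, have the lowest *Aqp1*, 7.69 and 9.43 FPKM.

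The genes whose spleen levels were in the most constant proportion to *Aqp1* were chosen after values were seen. They were *Slc6a9*, a glycine transporter that feeds heme synthesis in red cell precursors (SD of the log2 ratio 0.07, mean 11.3 FPKM), *Sphk1* (0.12) and *Slc2a4* (0.13). Next came *Fam109b* (0.18), *Sh3tc2* (0.22), *Aldh1a1* (0.23), *Mboat2* (0.24) and *Fbxo30* (0.24). The last of the 10 closest were *Cpox*, an enzyme of heme synthesis (0.26), and *Mfsd2b* (0.26). The median SD over all genes was 1.73.

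*Enpp2* in spleen was at 31.4, 25.5 and 27.5 FPKM in *Norad*+/+ and at 33.1, 35.4 and 31.9 FPKM in *Norad*-/-. Each *Norad*-/- library was above each *Norad*+/+ library, the nearest being 31.9 and 31.4 FPKM. The difference was 0.25 (95% interval 0.01 to 0.50, limma adjusted p = 0.226), and it was 0.12 with the red cell markers as a covariate.

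*Ttr* in spleen was at 0.411, 0.0336 and 8.42 FPKM in *Norad*+/+ and at 0.0752, 0 and 0.0464 FPKM in *Norad*-/-. It passed the filter through *Norad*+/+ replicate 3 alone, which held about 338 of its reads by the estimated depth. *Norad*+/+ replicate 1 held about 15 and the other libraries at most 3. The log2 difference of -2.61 (limma adjusted p = 0.346) was -0.93 without that library.

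*Norad*+/+ spleen replicate 3 also held the highest values of *Kl* (0.0982 FPKM), *Clic6* (0.0631 FPKM), *Cldn2* (0.164 FPKM) and *Otx2* (0.0220 FPKM) among the spleens. As a share of the brain mean these came to 1.89% for *Ttr*, 1.5% for *Kl*, 1.27% for *Clic6* and 0.767% for *Otx2*, and to 11.7% for *Cldn2*. *Folr1* was also highest in that library, at 0.356 FPKM or 14.6% of its brain mean, and the other spleens held 0.0674 to 0.261 FPKM of it. Not every member followed, since *Prlr* (0.0135 FPKM there, 0.0122 to 0.0230 FPKM over the spleens) and *Enpp2* (27.5 FPKM) were not highest in that library. The neuronal gene *Snap25* was at 7.02 FPKM in that library, 0.726% of its brain mean, and at 0.0189 to 0.561 FPKM in the other spleens. The astrocyte gene *Aldoc* was at 7.67 FPKM there, 1.52% of its brain mean, but the other spleens held 2.16 to 3.18 FPKM of it too. The same library held *Alb* at 56.8 FPKM, listed at 0 in the other 5, *Rbp4* at 3.10 FPKM, and exocrine pancreas markers that summed to 421 FPKM against 3.41 to 9.63 FPKM. Liver and pancreatic islets are known to make transthyretin too, and with the liver markers as a covariate, chosen after seeing the data, the *Ttr* difference was -0.90. Which tissue these reads came from was not tested.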

How the data were processed

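RNA-seq of brain and spleen from 3 *Norad*+/+ and 3 *Norad*-/- mice per tissue was used. The authors deposited FPKM values per gene, made with StringTie 1.2.2 from reads that had passed a quality filter and mapped uniquely to GRCm38 (TopHat2 2.0.12, per the submitters' processing notes). The annotation behind the FPKM values is not given in the sources used here, and 0 value columns belong to no sample.

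The 9 genes and all gene lists were chosen with earlier results of these data known. Each tissue was fitted on its own with limma 3.58.1 (R 4.3.3), variance trend on, over genes whose 6 libraries averaged 1 FPKM or more. The scale was log2(FPKM + 0.1), on which differences of genes near 0.1 FPKM come out too small. Adjustment was by Benjamini-Hochberg across all genes of the tissue, and the threshold was 0.05. A count model was not used, since FPKM are not counts. The p-values measure the spread between the 3 mice of a group. Ratios to *Ttr* were compared by exact two-sided permutation. To estimate depth, the smallest FPKM steps of genes with a single annotated transcript were taken as whole reads, within a search range set after a first estimate gave a multiple. Read numbers are therefore approximate and cover counting error only. Of 24062 genes 22750 matched GENCODE M21 by symbol, which gave positions and 3' UTRs. All 9 genes were named in full, and of each list the most abundant in brain. Some genes are not reported here. The genes nearest to *Kl* (5) and *Ttr* (10) in proportion were named as well. The alternatives were other pseudocounts (0.01 and 1 FPKM), filters (none and 5 FPKM), scalings, variance models, covariates, a replicate block and leaving out each library. The fits were tested on simulated data. Python 3.11.15 with pandas 2.3.3, numpy 2.4.6 and, for figures, matplotlib 3.10.9 did the rest.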

Additional observations from a re-analysis of the deposited data

How the results depend on the processing

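None of the 9 genes passed the threshold in any of the alternative fits, where the smallest adjusted p was 0.123 in brain (*Clic6*, other choroid plexus genes as a covariate) and 0.0745 in spleen (*Aqp1*, replicate block). Left out in turn, the libraries gave differences in brain of -0.77 to -0.39 for *Ttr*, -0.45 to -0.16 for *Kl*, -0.26 to -0.12 for *Clic6*, -0.063 to 0.17 for *Folr1*, -0.24 to 0.28 for *Otx2*, 0.04 to 0.29 for *Aqp1*, -0.20 to 0.088 for *Cldn2* and -0.12 to 0.018 for *Enpp2*. In spleen the ranges were -3.19 to -1.67 for *Aqp1*, 0.19 to 0.34 for *Enpp2* and -3.93 to -0.93 for *Ttr*. The *Kl* ratio to *Ttr* ranged from -0.065 to 0.61, the low end without *Norad*+/+ replicate 3. The sign turned without *Norad*+/+ replicate 2 for *Cldn2* (0.088) and *Enpp2* (0.018), without *Norad*+/+ replicate 3 for *Folr1* (-0.063) and *Otx2* (-0.24), without *Norad*-/- replicate 3 for *Folr1* (-0.048) and *Otx2* (-0.020), with both libraries numbered 3 left out for *Folr1* (-0.15) and *Otx2* (-0.34), with the choroid plexus covariate for *Cldn2* (0.12) and *Enpp2* (0.035), and with the red cell covariate for *Aqp1* in spleen (0.13). The causes were not tested.

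Counts of all genes past the threshold moved more. In brain 2 genes passed, 1 to 15 with 1 library left out, 13 with the choroid plexus covariate and 25 with both libraries numbered 3 left out. In spleen 4 passed, 2 to 93 with 1 library left out, 2 without the filter, 2 rescaled to TPM, 2 after quantile normalization and 1 with the red cell covariate. Replicate numbers are shared between genotypes. In brain the deviations of same-numbered libraries correlated at 0.061, 0.068 and 0.11, each above those of differently numbered libraries (-0.092 to 0.040). In spleen the same-numbered values were 0.338, -0.147 and 0.29, and the differently numbered ones ran from -0.477 to 0.36. The main fits took no pairing, and whether the numbers pair the mice was not tested. With the replicate block 1 gene passed in brain and 1 in spleen, and it changed no call among the 9 genes. Low values rest on few reads, and 3 reads of *Ttr* correspond to 0.0687 to 0.0891 FPKM.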

Other observations

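Folate genes, which act with *Folr1*, were mostly lower in value in *Norad*-/- spleen. Of 10 tested in spleen 9 lay below 0 with a median of -0.30, and in 6 all *Norad*-/- libraries were below all *Norad*+/+ libraries, against 53.8% and 14.9% of all genes tested. With limma 0 passed and 5 had an unadjusted p under 0.05, against 21% of all genes. The exception was *Folr4*, listed with the folate receptors by name, which was at 14.0 ± 1.77 FPKM in *Norad*+/+ and 21.3 ± 3.56 FPKM in *Norad*-/- (0.60) and was 1 of those 5. *Mthfd1*, an enzyme that interconverts folate one-carbon units, had a difference of -0.97 (limma adjusted p = 0.148). In brain 2 of the 8 tested folate genes lay below 0, with a median of 0.16, and *Mthfd1* was at 0.04. Whether the tissues differ was not tested. The red cell markers described for *Aqp1* were also lower in value in *Norad*-/- spleen, and their part in the folate genes was not tested.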
